A study of Mus musculus with 24 samples.

Results

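The common effect of spared nerve injury (SNI) on the medial prefrontal cortex (mPFC) was measured by fitting the female and the male mPFC count tables together, with the table as a block. The 12 mPFC libraries of the 24 in the series entered the fit, 6 from SNI and 6 from sham-operated mice. All genes with enough counts were kept in it. SNI cuts part of the sciatic nerve and leaves a branch intact, and it is a standard model of neuropathic pain. The C57BL/6 mice were 3 months old and were taken 2 weeks after surgery. The 4 groups were female sham, female SNI, male sham and male SNI, with 3 libraries each. Every library held RNA pooled from tissue punches of several animals, so the replicate is the pool and the p-values measure the spread between pools. Each table holds 1 sex, so sex and any batch of the table cannot be told apart.

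The 12 libraries held 23853845 to 32864391 counted reads (median 26826763). Of 33364 genes listed, 17641 had enough counts to be tested. Slc17a7, the vesicular glutamate transporter of cortical excitatory neurons, was at 1593 to 1983 CPM (read counts scaled by TMM factors to a common library size). Gad1, which makes GABA, was at 250.3 to 273.6 CPM in the 12 libraries. Both are genes of cortical neurons in general, so they cannot tell the mPFC from another cortical region. Xist, the transcript of the inactive X chromosome, lay at 584.9 to 765.5 CPM in the female libraries and at most at 2.80 CPM in the male ones. Female SNI library 1 and male SNI library 2 stood apart by the lowest levels of myelin genes in their tables, female sham libraries 1 and 2 by their GC trend, and male SNI library 2 also by 72.7 CPM of Ttr, a choroid plexus transcript at no more than 1.70 CPM in the other libraries. These libraries are taken up beside the results they touch. In bulk tissue fewer cells of a type and less RNA per cell cannot be told apart.

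Myelin is the lipid-rich membrane that oligodendrocytes wrap around axons. Its compact layers are held together by a small set of abundant proteins, its edges are sealed to the axon at paranodes, and its synthesis is driven in the adult by SOX10, MYRF and OLIG factors in cells that differentiate from oligodendrocyte precursors. In the mPFC, deep layers and the white matter beneath them carry the most myelin, and upper layers the least. The mPFC takes part in the control of pain and mood.

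No gene passed the threshold of the combined fit, a false discovery rate (FDR) under 0.1 in the edgeR quasi-likelihood test: 0 of 17641 genes (0%), with a smallest FDR of 0.25. At an unadjusted p under 0.05 lay 1293 genes (7.33%), 645 higher (3.66%) and 648 lower (3.67%) after SNI. All differences below are therefore values with their errors and not calls. The median log2 fold change over all genes tested was 0.00. Genes of oligodendrocytes and myelin made up 10.6% of the 648 lower genes and 0.533% of all genes tested. Their lists were written with earlier results of these data known. The higher genes held many transcripts without a name.

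The promoters of 3 myelin structural genes are shown because these genes lay lower after SNI in both tables while their upstream sequences differ. Each is the window of 250 bases before the RefSeq transcription start (GRCm38.p6), 5′ to 3′ on the strand of the gene. Capitals mark ACAAAG or its reverse complement CTTTGT, core letters bound by SOX proteins such as SOX10. The windows are chr2:127656696-127656945 on the minus strand for Mal, chr11:100574689-100574938 on the plus strand for Cnp and chr9:120149492-120149741 on the plus strand for Mobp.
Mal: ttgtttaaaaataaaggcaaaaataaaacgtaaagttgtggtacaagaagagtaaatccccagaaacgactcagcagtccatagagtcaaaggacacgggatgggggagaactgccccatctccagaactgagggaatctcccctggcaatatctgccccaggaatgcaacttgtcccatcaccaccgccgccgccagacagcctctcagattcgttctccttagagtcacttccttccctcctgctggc
Cnp: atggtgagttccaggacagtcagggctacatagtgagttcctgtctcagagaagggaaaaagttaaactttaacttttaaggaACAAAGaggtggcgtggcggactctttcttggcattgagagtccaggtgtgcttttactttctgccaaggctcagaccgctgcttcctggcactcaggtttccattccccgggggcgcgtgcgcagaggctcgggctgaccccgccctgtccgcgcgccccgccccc
Mobp: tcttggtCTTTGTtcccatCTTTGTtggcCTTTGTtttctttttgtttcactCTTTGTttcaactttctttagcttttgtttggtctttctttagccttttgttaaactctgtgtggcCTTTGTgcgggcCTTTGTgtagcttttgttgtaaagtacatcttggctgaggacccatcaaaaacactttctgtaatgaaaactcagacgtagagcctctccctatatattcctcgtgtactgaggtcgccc
Mal had 0, Cnp 1 and Mobp 6 matches on both strands. Matches stood in 16.5% of 32851 such windows of the mouse, in 9 of 21 windows of the myelin structural genes (42.9%), and in 18 of 88 windows of the 5 oligodendrocyte and myelin lists as a whole (20.5%). By genes, 8 of 14 structural genes with a window (57.1%) held a match in at least 1 of their windows, against 18.6% of 27025 genes. The letters CANNTG, the E-box core read by OLIG factors, stood in 66.2% of all windows, 52.4% of the structural and 65.9% of the list windows. Windows of 1 gene can overlap, and a match is a description of letters and not of a binding site.

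Genes of 5 lists (structural proteins, paranode, septin and gap junction genes, lipid synthesis and turnover, oligodendrocyte transcription factors, and iron, metabolism and signalling genes) are described first. They hold 95 genes, of which 94 were tested. Because the lists were written with earlier results of these data known, their shares beside those of all genes are descriptions only. At an unadjusted p under 0.05, 69 of the 94 lay lower (73.4%, against 3.67% of all genes) and 0 lay higher. The median log2 fold change of the 94 was −0.32, and 76 were lower in both tables while 2 were higher in both. Of all genes tested, 3648 (20.7%) were lower in both tables and 3593 (20.4%) higher in both. With female SNI library 1 and male SNI library 2 both left out, 56 of the 94 remained at an unadjusted p under 0.05 with a median of −0.19.

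The myelin structural proteins had the lowest median of these lists. Of 17 tested, 13 lay lower at an unadjusted p under 0.05 and 0 higher, with a median of −0.50 (−0.50 in the female and −0.44 in the male table). Summed over the list, female sham libraries held 4381, 4590 and 4282 CPM and female SNI libraries 2240, 3998 and 3818 CPM. Male sham libraries held 5198, 4600 and 5012 CPM and male SNI libraries 4136, 3101 and 3846 CPM. Each of the 6 SNI libraries lay under every sham library of its own table. The lowest were female SNI 1 and male SNI 2, whose list medians against the sham mean of their table were −1.36 and −0.74 on the log2 scale. The other 4 SNI libraries ranged from −0.40 to −0.16. Without both low libraries, 13 of the 17 genes still had an unadjusted p under 0.05 and the median was −0.26.

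Mbp, myelin basic protein, which presses the inner faces of the myelin membrane together, was measured at 1357, 1425 and 1154 CPM in female sham and 444.3, 1119 and 1007 CPM in female SNI libraries. In males the values were 1492, 1348 and 1431 CPM in sham and 1166, 839.3 and 1088 CPM in SNI libraries. The groups did not overlap in either table, and the log2 fold change was −0.54 (SE 0.15, FDR 0.352).

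Mal, a raft protein of myelin transport, had 150.8, 157.3 and 150.9 CPM in female sham and 58.3, 134.9 and 125.0 CPM in female SNI libraries. Male sham libraries held 202.4, 164.4 and 190.1 CPM and male SNI libraries 141.2, 94.6 and 127.5 CPM. The sham values of each table all stood above its SNI values, and the log2 fold change of −0.57 (SE 0.15) had an unadjusted p of 0.00116 and an FDR of 0.344. Cnp, a phosphodiesterase of non-compact myelin, lay at 219.1, 230.5 and 199.3 CPM in female sham and at 84.3, 191.9 and 166.2 CPM in female SNI libraries. Males gave 255.3, 231.2 and 248.6 CPM in sham and 202.5, 150.1 and 181.8 CPM in SNI libraries. The difference was −0.51 (SE 0.13, FDR 0.349), again without overlap.

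Mobp, a protein of the major dense line, which like Mog, Mag, Cldn11, Pmp22 and Omg was named after its values were seen, had a log2 fold change of −0.60 (SE 0.18), Mog, on the outermost lamella, −0.58 (SE 0.17), and Mag, an adhesion molecule facing the axon, −0.54 (SE 0.15). Cldn11, which forms the tight junctions of myelin, stood at −0.49 (SE 0.16), and Plekhb1 at −0.38 (SE 0.10). All 5 separated SNI from sham in both tables. Tspan2, a tetraspanin of myelin, was at −0.41 (SE 0.11) and separated in the male table only, with an interaction p of 0.412 for the difference between the tables. Not every member followed. Pmp22, a protein of peripheral myelin, was at −0.14 (SE 0.10), and Omg, which neurons also make, at 0.06 (SE 0.05), with 95% intervals of −0.36 to 0.09 and −0.05 to 0.17. The list included 10 genes that separated lower in both tables, of 129 among all genes (0.731%).

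**Figure D1:**
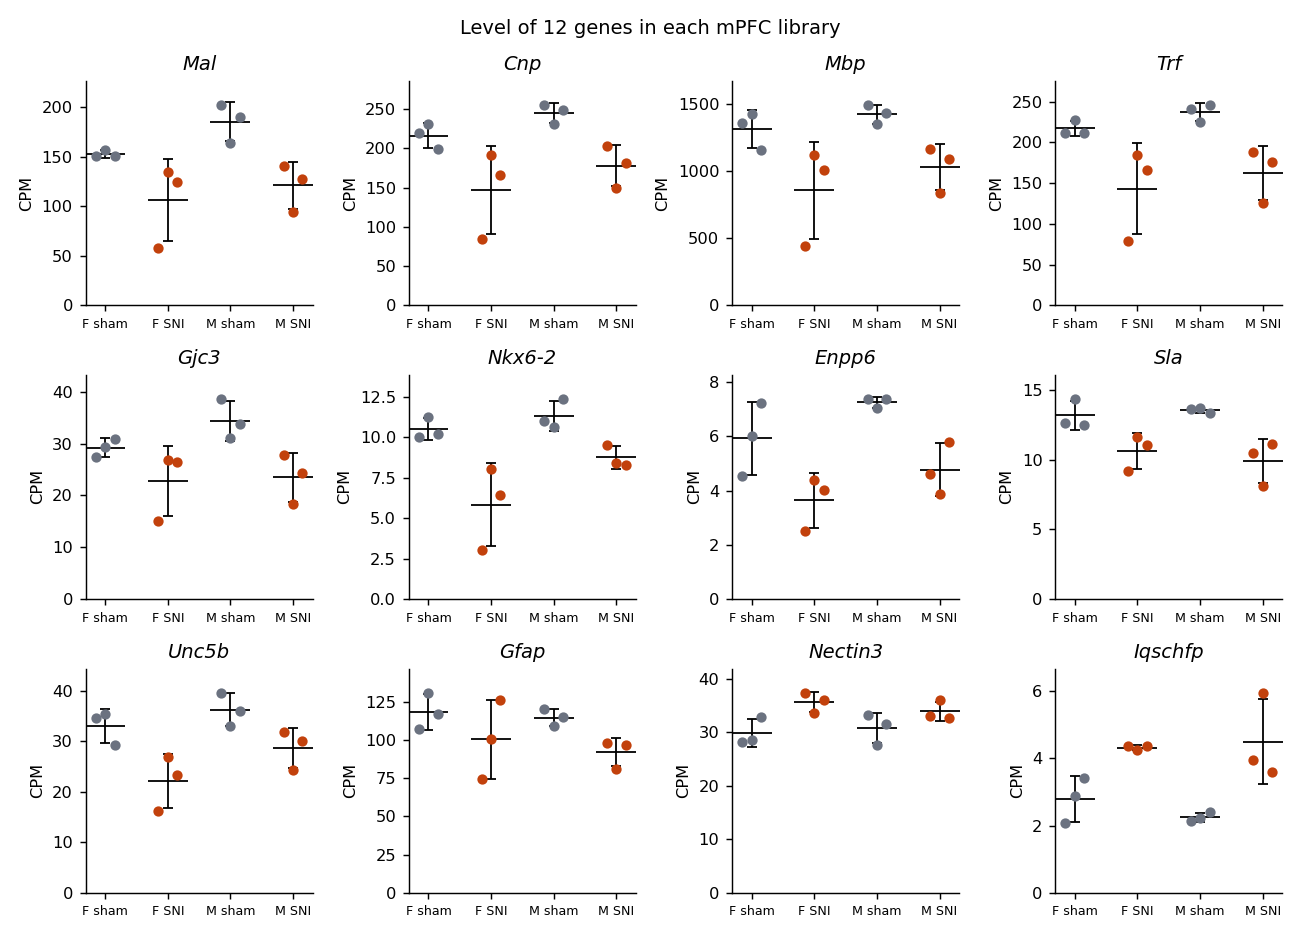
CPM (linear axis from 0) of 12 genes in the mPFC libraries, with 1 point per library for sham and SNI of the female (F) and male (M) tables, and with the mean and SD of each group of 3 as lines. For Mal, sham libraries sit between 150.8 and 202.4 CPM and SNI libraries between 58.3 and 141.2 CPM.

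The plot of single genes by library shows the same 2 SNI libraries at the bottom of each myelin gene, and the other 4 between them and the sham values. Trf (chr9:103204001-103230444, minus strand, GRCm38), transferrin, which in brain is made mainly by oligodendrocytes and carries iron, followed this order. Female sham libraries held 211.9, 227.8 and 212.1 CPM and female SNI libraries 79.1, 184.0 and 166.1 CPM. Male sham libraries held 241.3, 225.0 and 246.0 CPM and male SNI libraries 187.7, 125.1 and 175.5 CPM. The log2 fold change was −0.57 (SE 0.14, FDR 0.334), and Trf passed the threshold when both low SNI libraries were left out, as 1 of 2 genes that then did. Those libraries were chosen after the data were seen and held the least Trf of their tables, so this is a description only.

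Paranode, septin and gap junction genes gave 14 of 18 lower at an unadjusted p under 0.05, 0 higher, and a median of −0.37 (−0.39 in females and −0.30 in males). Sept4, a septin of the myelin scaffold, was measured at 105.7, 110.0 and 92.0 CPM in female sham and 57.0, 89.2 and 82.4 CPM in female SNI libraries. Male libraries held 118.4, 111.2 and 112.7 CPM after sham and 102.5, 77.5 and 92.3 CPM after SNI surgery. The groups did not overlap and the log2 fold change was −0.38 (SE 0.09, FDR 0.328). Jam3, a junctional adhesion molecule, was at −0.23 (SE 0.06), Tppp3, a tubulin-binding protein, at −0.36 (SE 0.09), and Gjc3, a gap junction protein of oligodendrocytes, at −0.45 (SE 0.12). These 3 separated in both tables. Ermn, a cytoskeletal protein of myelinating cells, was at −0.56 (SE 0.16) and separated in the male table. The lowest member was Ninj2 at −0.80 (SE 0.27), at under 1 CPM in every library.

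Lipid genes differed less. Of 18 tested, 11 lay lower at an unadjusted p under 0.05, with a median of −0.14 (−0.16 in females and −0.15 in males). Scd2, a fatty acid desaturase that many brain cells use, had 1536, 1520 and 1631 CPM in female sham and 1343, 1409 and 1432 CPM in female SNI libraries. Male sham libraries gave 1546, 1522 and 1564 CPM and male SNI libraries 1429, 1317 and 1392 CPM. It was the 1 lipid gene that separated in both tables, with a small and evenly spread difference of −0.16 (SE 0.04, FDR 0.328). Genes that make myelin galactolipids lay further from 0: Ugt8a, the galactosyltransferase of galactocerebroside, was at −0.43 (SE 0.14), Fa2h, which hydroxylates its fatty acid, at −0.50 (SE 0.17), and Gal3st1, which sulfates it, at −0.34 (SE 0.09). Aspa, which frees acetate from N-acetylaspartate, was at −0.42 (SE 0.17), and Plin3, of lipid droplets, at −0.30 (SE 0.09).

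Transcription factors of the lineage gave 8 of 14 lower at an unadjusted p under 0.05, 0 higher, and a median of −0.25. Sox10, which drives myelin genes, lay at 41.4, 48.7 and 38.1 CPM in female sham and 18.8, 37.1 and 32.0 CPM in female SNI libraries. In males it lay at 47.6, 44.4 and 47.6 CPM after sham and at 42.6, 30.1 and 35.4 CPM after SNI surgery. Its log2 fold change was −0.45 (SE 0.12, FDR 0.349), without overlap in either table. Nkx6-2, a homeobox factor of mature oligodendrocytes, was at −0.59 (SE 0.15), and Carhsp1, an RNA-binding protein kept in this list, at −0.38 (SE 0.09), both separated in both tables. Myrf, which switches on myelination, stood at −0.53 (SE 0.16). Sox8 was at −0.22 (SE 0.06). Olig1 and Olig2, which precursors express as well, had smaller differences of −0.20 (SE 0.07) and −0.24 (SE 0.08).

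Iron, metabolism and signalling genes of oligodendrocytes had 23 of 27 lower at an unadjusted p under 0.05 and a median of −0.40 (−0.37 in females and −0.33 in males). Cryab, a small heat shock protein abundant in these cells, had 46.1, 48.1 and 43.3 CPM in female sham and 25.6, 42.1 and 40.0 CPM in female SNI libraries. Male values were 62.7, 53.5 and 65.1 CPM in sham and 47.1, 33.6 and 44.8 CPM in SNI libraries, with a log2 fold change of −0.44 (SE 0.10, FDR 0.328). Gpr37, a receptor of maturing oligodendrocytes, was at −0.51 (SE 0.12), Ndrg1 at −0.44 (SE 0.11), and Car2, carbonic anhydrase, at −0.28 (SE 0.07). Outside the smallest p values of the list, Sgk2, a kinase, was at −0.74 (SE 0.20), Serpinb1a, a protease inhibitor, at −0.70 (SE 0.21), Bcas1, a marker of cells that are forming myelin, at −0.55 (SE 0.15), Adamts4, a protease, at −0.54 (SE 0.14), and Il33, an alarmin that glia store in the nucleus, at −0.40 (SE 0.12). As for the structural list, the summed level of each SNI library was under every sham library of its table.

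**Figure D2:**
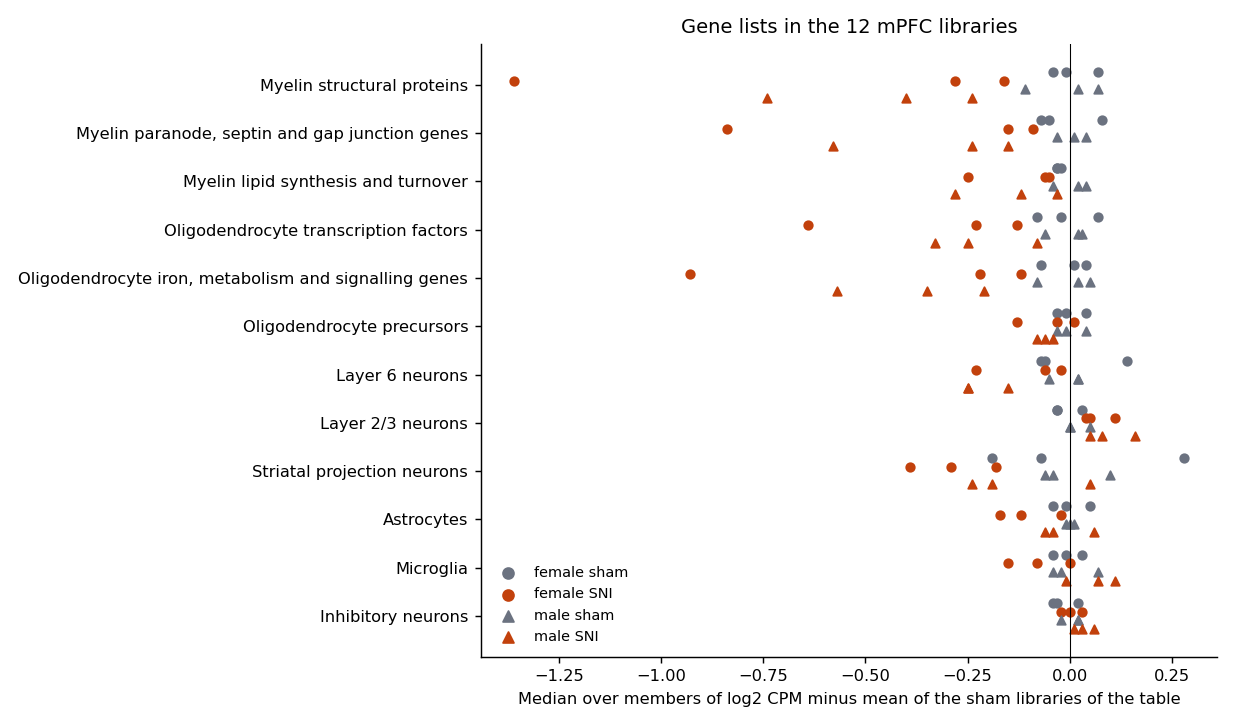
For each gene list (rows), the median over its members of log2 CPM minus the sham mean of the same table (horizontal axis, log2 units), with 1 point per mPFC library. In the myelin structural list female SNI 1 sits at −1.36 and male SNI 2 at −0.74, the other SNI libraries between −0.40 and −0.16.

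Precursors of oligodendrocytes differed less than the mature cells' genes, as the plot of lists by library shows. Of 18 tested, 3 lay lower at an unadjusted p under 0.05, against 3.67% of all genes, and 0 higher. The median was −0.04 (−0.07 without female SNI library 2). Only 3 of the 6 SNI libraries had a summed level under every sham library of their table. Pdgfra, the growth factor receptor that defines these cells, was at −0.10 (95% interval −0.22 to 0.02). Gpr17, a receptor of cells committed to differentiate, had 52.8, 50.5 and 49.4 CPM in female sham and 42.0, 48.5 and 46.6 CPM in female SNI libraries. In males it had 51.8, 52.5 and 54.0 CPM after sham and 48.1, 47.9 and 44.5 CPM after SNI surgery, a small difference of −0.16 (SE 0.04, FDR 0.349) without overlap. Enpp6 (chr8:46986887-47096762, plus strand), a choline phosphodiesterase of newly formed oligodendrocytes, lay further from 0 than any other member. Female sham libraries held 4.55, 6.01 and 7.24 CPM and female SNI libraries 2.50, 4.4 and 4.03 CPM. In males, sham libraries held 7.37, 7.03 and 7.38 CPM and male SNI libraries 4.62, 3.86 and 5.80 CPM. The difference was −0.65 (SE 0.14, unadjusted p 0.000184, FDR 0.328). Neu4, a sialidase, was at −0.14 (SE 0.09), and Rnf43, a ubiquitin ligase of the WNT receptors, at −0.29 (SE 0.12).

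**Figure D3:**
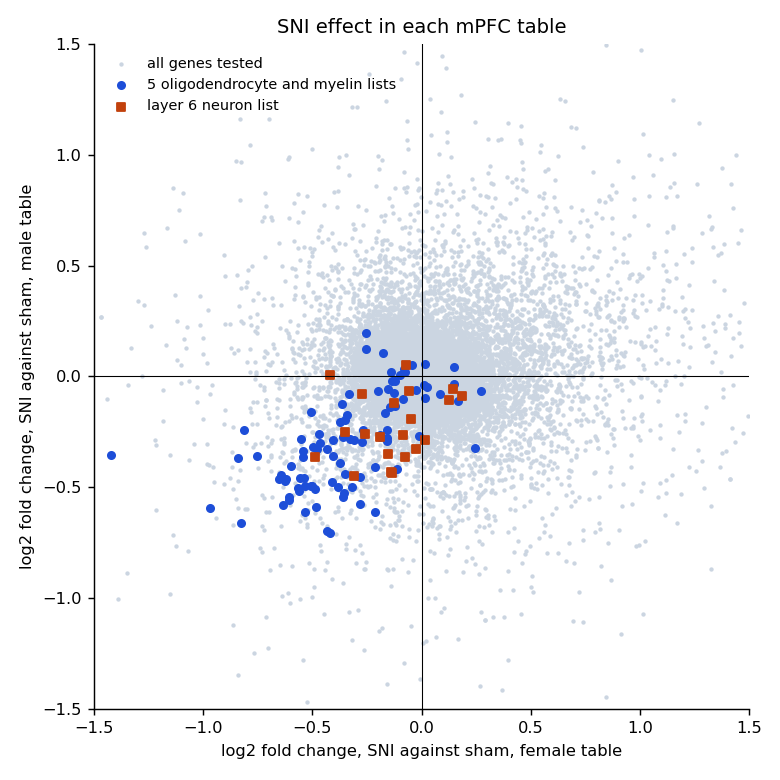
Log2 fold change after SNI in the female table (horizontal axis) against that in the male table (vertical axis) for all 17641 genes tested, with the 5 oligodendrocyte and myelin lists and the layer 6 list marked. Of the 94 tested genes of the 5 lists, 76 lie below 0 on both axes; 99 genes outside ±1.5 are not drawn, 0 of them in the 5 lists.

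Across all genes and before any correction for GC trend, the fold changes of the tables showed little relation. The plot of the female against the male table shows them. Spearman's rho between the female and the male log2 fold changes over the 17641 genes was −0.085, a description only, since genes are not independent. SNI and sham libraries separated the same way in both tables for 176 genes (0.998%), 129 lower (0.731%) and 47 higher (0.266%). In opposite directions separated 262 genes (1.49%). After a correction of each library for its GC trend, taken up below, 229 genes separated the same way and 88 in opposite directions. Of the 129, 31 were in the 5 lists (24% of the 129 and 33% of the 94 genes of the lists), against 0.533% of all genes tested that the lists hold. Of the 47 separated higher, 0 were in any of the 36 lists examined. Fitted alone, 1 gene (0.00567%) was called in the female and 69 genes (0.391%) in the male table at an FDR under 0.1. At an unadjusted p under 0.05 in both tables lay 384 genes (2.18%), 157 in the same direction (0.89%) and 227 in opposite directions (1.29%). The 157 were 122 lower (0.692%) and 35 higher (0.198%) genes. A test of the sex by SNI interaction gave an unadjusted p under 0.05 for 7 of the 94 list genes, against 2791 of all genes (15.8%). After the same correction for GC trend, the count over all 17641 genes was 908. The 94 genes were not counted under that correction, so their share cannot be set against the corrected one.

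Layer 6 neurons project to the thalamus or within the cortex. Their list had 12 of 21 genes lower at an unadjusted p under 0.05 (against 3.67% of all genes) and 0 higher (against 3.66%). Its median was −0.17 (−0.13 in the female and −0.26 in the male table). Summed levels were 694.6 to 796.1 CPM in female sham, and 5 of the 6 SNI libraries lay under every sham library of their table. Sla (chr15:66780819-66831829, minus strand), an adaptor protein, had 12.7, 14.4 and 12.5 CPM in female sham and 9.19, 11.7 and 11.1 CPM in female SNI libraries. Male values were 13.6, 13.7 and 13.4 CPM after sham and 10.5, 8.13 and 11.1 CPM after SNI surgery. It was the 1 member that separated in both tables, at −0.38 (SE 0.08, unadjusted p 0.000192, FDR 0.328). Hs3st4, a heparan sulfate sulfotransferase, was at −0.25 (SE 0.07), Rprm, a cell cycle inhibitor, at −0.26 (SE 0.08), Ntsr1, the neurotensin receptor that marks corticothalamic cells, at −0.30 (SE 0.10), Syt6, a synaptotagmin, at −0.28 (SE 0.10), and Tle4, a corepressor, at −0.17 (SE 0.07). As in the myelin lists, female SNI 1 and male SNI 2 held the least of their tables, at 637.2 and 628.2 CPM over the list.

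Neurons of other layers differed less. At an unadjusted p under 0.05 lay 3.67% of all genes on the lower and 3.66% on the higher side. In layer 5, 3 of 19 genes lay lower and 0 higher at an unadjusted p under 0.05, with Bcl11b, a transcription factor of subcortical projection neurons, at −0.15 (SE 0.04), Tshz2 at −0.14 (SE 0.05) and Fezf2, which specifies the same neurons, at −0.15 (SE 0.07). In layer 2/3, 4 of 15 lay higher and 0 lower, with a median of 0.08. Nectin3, an adhesion molecule, was at 0.20 (SE 0.06), Stard8 at 0.20 (SE 0.06), Pou3f2, a POU factor of upper layers, at 0.18 (SE 0.06), and Cux2, a homeobox marker of these layers, at 0.12 (SE 0.05). The lists of excitatory and inhibitory neurons had medians of 0.03 and 0.00. Slc17a6, a vesicular glutamate transporter of the excitatory list, was at −0.33 (SE 0.07).

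Striatal and ependymal genes were examined as markers of tissue that borders the punches. Of all genes tested, 3.67% lay lower at an unadjusted p under 0.05. Of 15 striatal genes 7 lay lower at an unadjusted p under 0.05, with a median of −0.25 (−0.33 in females and −0.09 in males), and 5 of the 6 SNI libraries had a summed level under every sham library of their table. Drd2, the dopamine receptor of indirect pathway neurons, was at −0.70 (SE 0.18) and at 1.84 to 5.86 CPM. Ppp1r1b, the DARPP-32 phosphoprotein, and Rgs9, which shortens G protein signals, were both at −0.25 (SE 0.10 and 0.09). Adora2a was at −0.32 (SE 0.13), and Drd1, which cortical layer 6 also expresses, at −0.20 (95% interval −0.42 to 0.02). Of 13 ependymal genes 3 lay lower, and the median of −0.46 was −0.23 over the genes with at least 10 counts in every library. Foxj1, the master factor of motile cilia, had 4.4, 4.08 and 4.59 CPM in female sham and 2.12, 3.03 and 3.70 CPM in female SNI libraries, and 4.90, 5.06 and 4.87 CPM against 4.50, 3.39 and 4.23 CPM in males, a difference of −0.41 (SE 0.12) without overlap. Summed over the striatal list, SNI libraries held 277.3 to 296.4 CPM and sham libraries 285.9 to 352.5 CPM, and the part of neighbouring tissue in the myelin values was not tested.

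Meningeal fibroblast genes lay on the other side, with 4 of 20 higher at an unadjusted p under 0.05, against 3.66% of all genes. Lower lay 0, and the median of the list was 0.16. The median was 0.05 without female SNI library 3, and 0.05 to 0.21 over the 12 omissions of 1 library. Ptgds, a prostaglandin synthase of meninges and oligodendrocytes, was at 0.35 (SE 0.12), Aldh1a2, which makes retinoic acid, at 0.30 (SE 0.12), Ogn, a matrix proteoglycan, at 0.70 (SE 0.32), and Cdh1, E-cadherin, at 1.0 (SE 0.31). Cdh1 lay at only 0.219 to 2.16 CPM, and its female SNI and sham libraries overlapped. The summed level of the list spread more than the difference, at 432.2 to 556.0 CPM in female sham and 457.6 to 751.5 CPM in female SNI libraries. Ttr, transthyretin, had a fitted log2 fold change of 4.42 that 1 library made, since male SNI library 2 held 72.7 CPM. Over all alternatives it ranged from 0.34 to 5.01. Kcnj13, a potassium channel of the same epithelium, was at 0.73 (SE 0.32) and under 1 CPM.

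Axon guidance genes included 10 of 49 lower at an unadjusted p under 0.05, against 3.67% of all genes. Higher lay 0, against 3.66%, and the median was −0.06. Unc5b (chr10:60762593-60831581, minus strand), a netrin receptor, had 34.6, 35.5 and 29.3 CPM in female sham and 16.3, 26.9 and 23.4 CPM in female SNI libraries. In males, sham libraries held 39.7, 33 and 36.1 CPM and male SNI libraries 31.9, 24.3 and 30.1 CPM. Without overlap in either table, its log2 fold change was −0.45 (SE 0.10, FDR 0.328). Sema6a, a transmembrane semaphorin that oligodendrocytes express, was at −0.26 (SE 0.06) and separated in both tables as well. Sema5b was at −0.24 (SE 0.07), Sema3f, a secreted semaphorin, at −0.27 (SE 0.08), Plxnb3, a semaphorin receptor of oligodendrocytes, at −0.34 (SE 0.14), and Ntn1, the netrin ligand, at −0.18 (SE 0.07).

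Slain1, a microtubule plus-end protein, had the smallest p of all lower genes. It lay at 53.5, 56.9 and 52.8 CPM in female sham and 37.8, 49.0 and 47.5 CPM in female SNI libraries. In males it lay at 62.8, 59.3 and 59.3 CPM after sham and 50.5, 45.5 and 49.6 CPM after SNI surgery. The difference was −0.30 (SE 0.06, unadjusted p 7.36e-05, FDR 0.328). Prox1, a homeobox factor, was at −0.29 (SE 0.06), and Col23a1, a membrane collagen, at −0.43 (SE 0.10). These 3 were named after their values were seen.

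Higher genes were of another kind. Of the 645 genes higher at an unadjusted p under 0.05, 52.1% were protein-coding and 130 were provisional transcripts (TEC in the annotation), against 93.8% protein-coding among the 648 lower genes and 83.7% of all genes tested. Their median GC content was 43.5%, against 51.9% of the lower genes and 49.2% of all genes. The smallest p of the fit belonged to Gm6565, a processed pseudogene at chr6:100604683-100605120 on the plus strand (GRCm38). It was at 0, 1.71 and 0 CPM in female sham, at 3.81, 5.43 and 4.55 CPM in female SNI, at 0 in all 3 male sham, and at 4.71, 5.45 and 1.80 CPM in male SNI libraries. A count of 0 in a male sham library allows up to 0.112 CPM, from a floor of 3 counts per library that covers counting error only. The groups did not overlap in either table (FDR 0.25), and the gene passed the threshold without female sham library 2 or without male sham library 1. Reads of a processed pseudogene can come from the parent gene or its other copies, and it overlaps Shq1 on the other strand, so its values are uncertain.

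Iqschfp, annotated as a fusion of neighbouring genes, had 2.07, 2.89 and 3.43 CPM in female sham and 4.36, 4.25 and 4.36 CPM in female SNI libraries. Male sham libraries held 2.14, 2.22 and 2.40 CPM and male SNI libraries 3.95, 5.96 and 3.59 CPM. It separated in both tables at 0.81 (SE 0.15, unadjusted p 3.66e-05, FDR 0.323), but its span (chr3:67892232-68626466, plus strand) overlaps Iqcj, Schip1 and other genes on the same strand, and counting can split reads between them. Gm42770 and Gm42768, provisional transcripts that both lie within Kcnip4 on its strand, were at 0.98 (SE 0.20) and 1.01 (SE 0.21) and at 0.421 to 1.81 CPM. Clec18a, a C-type lectin, was at 0.31 (SE 0.07), and Inka2, an inhibitor of a PAK kinase, at 0.17 (SE 0.04), both separated. These 6 genes were also named after their values were seen.

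Of 8 mPFC genes that the study took to quantitative PCR, Mbp, Cnp and Trf are described above. Gfap, the intermediate filament of astrocytes, had 107.1, 130.8 and 117.1 CPM in female sham and 74.4, 100.6 and 125.8 CPM in female SNI libraries, which overlap. The male values were 119.8, 109.0 and 114.7 CPM after sham and 98.1, 81.2 and 96.6 CPM after SNI surgery, without overlap. Its combined difference was −0.28 (SE 0.09, FDR 0.477). The other 4 had unlike fold changes in the tables, but the interaction test called none of them (FDR 0.216 to 0.295). The study had listed them as changed in the female mPFC from the same data, so a female difference was built into the choice. Mbp, Cnp, Trf and Gfap were also chosen as changed in these data. Each had an FDR under 0.1 in the male table fitted alone, so a male difference may likewise be built into their choice. Gdf1, a growth factor of the TGF-beta family, had 16.5, 14.9 and 11.4 CPM in female sham and 9.91, 8.32 and 7.72 CPM in female SNI libraries, against 7.37, 5.03 and 11.5 CPM in male sham and 17.1, 12 and 9.43 CPM in male SNI libraries. Its log2 fold change was −0.73 in females and 0.70 in males, and the unadjusted interaction p was 0.000631. Snhg14, a long noncoding host transcript of small nucleolar RNAs, was at 0.41 in females and 0.07 in males, Myh14, a non-muscle myosin, at −0.43 and −0.07, and Tmem267, a membrane protein, at 0.55 and −0.05. Their combined values were 0.24 (SE 0.09), −0.25 (SE 0.07) and 0.26 (SE 0.12). Over 24 alternatives these ranged from 0.06 to 0.33 for Snhg14, −0.30 to −0.19 for Myh14 and 0.15 to 0.35 for Tmem267.

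Other glial and vascular lists differed little. Of all genes tested, 3.67% lay lower and 3.66% higher at an unadjusted p under 0.05. Of 25 astrocyte genes 2 lay lower, and of 23 microglial genes 1, with medians of −0.04 and −0.02. Of 20 endothelial genes 2 lay higher, with a median of 0.04, and of 16 smooth muscle and pericyte genes 0 lay on either side at an unadjusted p under 0.05. Hepacam, a glial adhesion molecule, was at −0.13 (SE 0.06).

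Immediate early genes, which neuronal activity induces, had 4 of 25 higher and 1 lower at an unadjusted p under 0.05. Of all genes tested, 3.66% lay higher and 3.67% lower. The median of the list was 0.08 (−0.01 in the female and 0.17 in the male table). The median was 0.05 to 0.14 with 1 library left out, lowest without female SNI 1 or male sham 1 and highest without female SNI 3, and 0.03 without both low-myelin SNI libraries. Bdnf, the neurotrophin, was at 0.14 (SE 0.06), Egr2 at 0.33 (SE 0.15), Ptgs2, cyclooxygenase 2, at 0.21 (SE 0.09), Arc, of synaptic endocytosis, at 0.19 (SE 0.09), and Jun at −0.15 (SE 0.06). Among receptors of opioids, peptides and monoamines, 3 of 46 lay higher and 3 lower. Htr2a, the serotonin 2A receptor, was at 0.20 (SE 0.08) and Adra2a, the adrenergic alpha 2A receptor, at −0.24 (SE 0.09). The 12 mitochondrially encoded genes had a median of 0.24, which was 0.42 in the female and 0.04 in the male table. It was 0.15 without female sham library 1, at most 0.33 with another library left out, and 0.11 under a correction for GC trend with the replicate number as a block.

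For 262 genes (1.49%) the tables separated in opposite directions, 134 higher after SNI in females (0.76%) and 128 higher in males (0.726%), while 176 separated the same way. Zfp955b, a zinc finger protein, had 25.5, 27.7 and 29.1 CPM in female sham and 38.8, 32.6 and 34.3 CPM in female SNI libraries. Male libraries held 34.1, 36.5 and 35.4 CPM after sham and 32.0, 30.4 and 31.6 CPM after SNI surgery, so that the log2 fold change was 0.35 in females and −0.17 in males. Lgalsl, a galectin-like protein, was at 0.26 and −0.14, and Slc30a7, a zinc transporter of the Golgi, at 0.22 and −0.25. Nr2f6, an orphan nuclear receptor, went the other way at −0.23 and 0.33, Tcf3, a helix-loop-helix factor, at −0.36 and 0.19, and Arf5, a GTPase of vesicle transport, at −0.20 and 0.19. These 6 were chosen after their values were seen.

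The interaction test over all genes called 0 of 17641 (0%), with a smallest FDR of 0.216. The genes higher in females had a median GC content of 42.8% and those higher in males of 57.9%. GC trends differed between libraries, in log2 units per 10 points of GC: female sham libraries 1, 2 and 3 were at 0.179, 0.18 and −0.077, and the female SNI libraries at −0.125, −0.034 and −0.121. Male libraries lay between −0.097 and 0.060. After a correction of each library for its GC trend, 88 genes separated in opposite directions and 229 the same way. An unadjusted interaction p under 0.05 then held for 908 of the 17641 genes, against 2791 without the correction. The median of the structural myelin list was −0.48 under that correction.

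**Figure D4:**
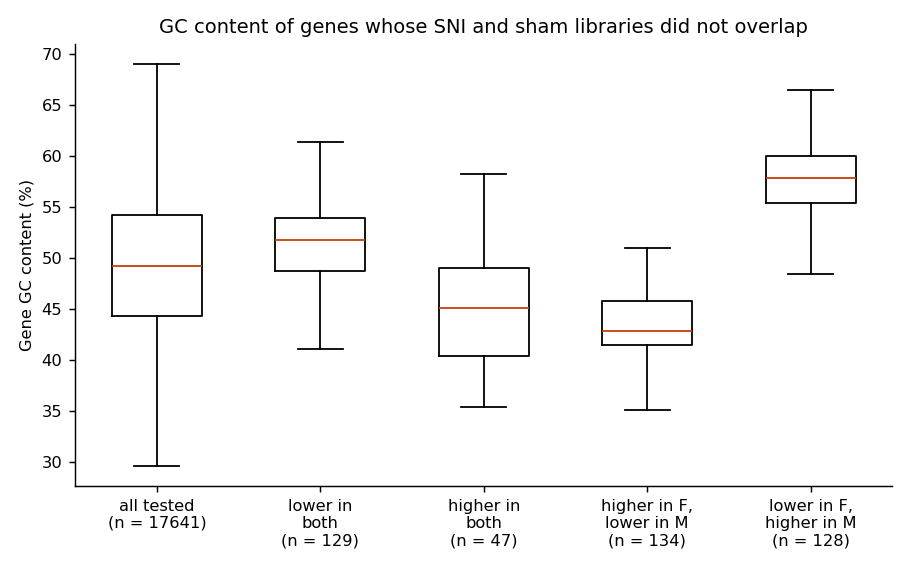
GC content of genes (vertical axis, percent) whose SNI and sham libraries did not overlap in both mPFC tables, by direction, beside all genes tested, as boxes (median and quartiles; whiskers reach the last value within 1.5 box heights, values beyond are not drawn). The set separated oppositely and higher in females has a median of 42.8%, the set higher in males 57.9%, and all genes 49.2%.

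The same comparison in the 12 libraries of the anterior cingulate cortex (ACC), from 6 SNI and 6 sham pools, gave 0 of 17289 genes (0%) at an FDR under 0.1, a smallest FDR of 0.814, and 961 (5.56%) at an unadjusted p under 0.05, 504 lower (2.92%) and 457 higher (2.64%). There the 94 oligodendrocyte and myelin genes had a median of 0.03, with 1 lower and 3 higher. The structural list was at 0.03, the paranode list at 0.07, the lipid list at 0.03, the transcription factors at 0.06 and the iron and signalling list at 0.02. Mbp was at 0.06, Mal at 0.00, Cnp at 0.08 and Trf at 0.11 in the ACC. The difference between the regions was tested over all 24 libraries as if independent, although the pools of the regions carry the same numbers and may share animals: 0 of 18078 genes (0%) passed the threshold, with a smallest FDR of 0.307, and 1481 (8.19%) had an unadjusted p under 0.05. Of the 94, 54 had one with the mPFC fold change the lower and 1 with it the higher. The mPFC minus ACC difference in log2 fold change was −0.57 for Mal, −0.60 for Mbp and −0.69 for Trf, at unadjusted p values of 0.02, 0.00995 and 0.00243.

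Layer 6 genes also differed between the regions. Of 21, 6 lay higher and 1 lower in the ACC at an unadjusted p under 0.05, against 2.64% and 2.92% of all genes. A region p under 0.05 held for 12 of the 21, against 8.19% of all genes. Sla was at 0.23 in the ACC (region p 0.000136), Hs3st4 at 0.15 (0.000392), Rprm at 0.31 (0.000235) and Syt6 at 0.41 (0.000154), all unadjusted. Ntsr1, the marker of corticothalamic cells, was at −0.03 there, with an unadjusted region p of 0.0998. Unc5b was at 0.15 in the ACC (region p 0.000549). Gfap was at −0.24 there and −0.28 in the mPFC, a difference of −0.04 with a region p of 0.772. Meningeal fibroblast genes had a median of −0.32 in the ACC, with 7 of 20 lower.

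**Figure D5:**
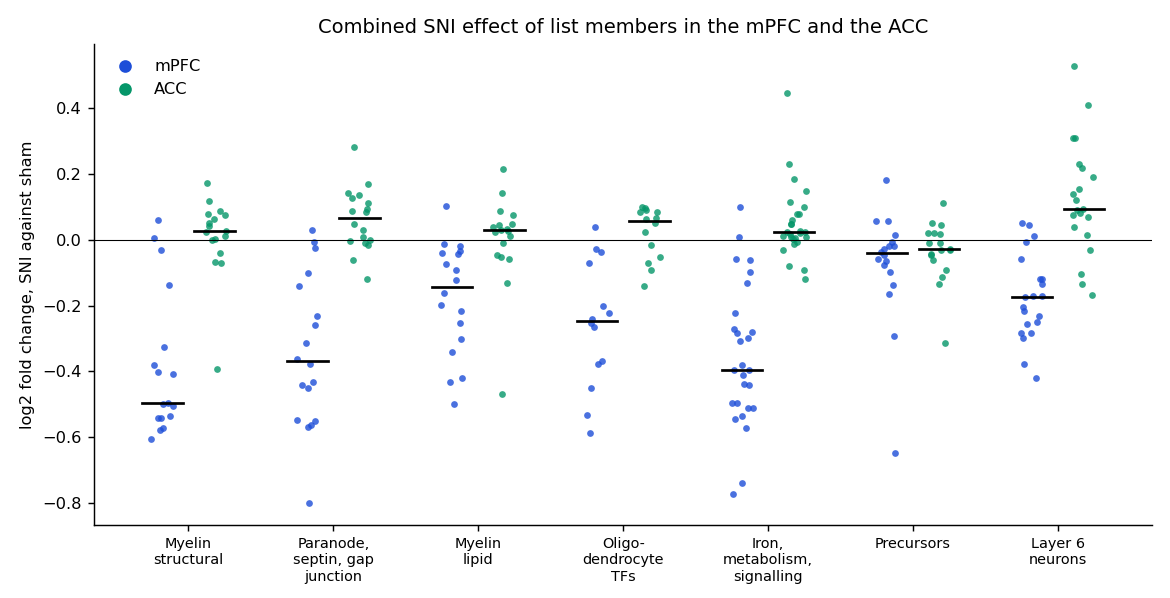
Combined log2 fold change of SNI against sham (vertical axis) for the tested members of the 5 oligodendrocyte and myelin lists, the precursor list and the layer 6 list, as points for the mPFC and the ACC with lines at the list medians. The 94 oligodendrocyte and myelin genes have a median of −0.32 in the mPFC and 0.03 in the ACC.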

How the data were processed

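RNA of 3 pools of mPFC punches per group was sequenced, and the authors deposited whole-number read counts per Ensembl gene, unnormalized, in 1 table per sex and region. Per the labels, the reads were trimmed with Trimmomatic 0.36, filtered with Bowtie2, mapped to GRCm38 with HISAT2 2.1.0 and counted with HTSeq 0.9.1. The strand mode is not given in the sources used here, so overlapping genes on opposite strands cannot be told apart. Symbols, coordinates and GC content came from GENCODE M21, which holds 33336 of the 33364 genes.

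Counts of the 12 mPFC libraries were filtered with filterByExpr (count 10, total 15), scaled with TMM and tested with edgeR 4.0.16 (R 4.3.3; legacy quasi-likelihood F-test, table as a block, FDR under 0.1, Benjamini-Hochberg), with limma 3.58.1 and DESeq2 1.42.0 as alternatives. Interactions added sex by SNI or region by SNI. Fitted log2 fold changes and their 95% intervals come from that model. A gene separates when all 3 SNI libraries of a table lie on 1 side of its 3 sham libraries. The scripts were tested on simulated data. The members and lists were chosen with earlier results of these data known. Named are the qPCR genes and up to 4 genes per list with the smallest p. No gene was called, so the part of the rule on called genes named none. Other genes were named after their values were seen: besides those said to be so in the text, Ermn, Ninj2, Fa2h, Aspa, Olig1, Olig2, Myrf, Sgk2, Serpinb1a, Bcas1, Adamts4, Il33, Neu4, Syt6, Tle4, Adora2a, Drd1, Plxnb3, Ntn1, Arc, Aldh1a2, Ogn and Hepacam. Some items are not reported here.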

Additional observations from a re-analysis of the deposited data

Results flagged for a closer look

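For 262 of 17641 genes (1.49%), the SNI libraries all lay above the sham libraries in 1 mPFC table and all below them in the other. The test of the sex by SNI interaction called 0 genes, with a smallest FDR of 0.216, and 2791 genes had an unadjusted interaction p under 0.05. Without female sham library 3, 3283 genes were called and 1161 separated in opposite directions. Leaving out a library makes separation easier: the other omissions gave 315 to 541 genes separated in opposite directions, and the 12 omissions gave 228 to 466 separated the same way. Female sham libraries 1 and 2, which then make up that group alone, had the GC trends of 0.179 and 0.18 log2 units per 10 points given above. After correction for the GC trend 88 genes separated in opposite directions and 908 had an unadjusted interaction p under 0.05. Whether GC content or sex accounts for the rest was not tested, and sex and table cannot be told apart.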

How the results depend on the processing

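The number of genes called in the combined mPFC fit, 0 as reported, depended on the test. It was 63 with DESeq2 (12 higher), 539 without the low-count filter (245 higher), 106 with the likelihood ratio test (35 higher), 1 with the current quasi-likelihood method and 1 with limma-voom. Of these, 35, 106, 61, 1 and 1 also separated the same way in both tables. RLE size factors, at least 10 counts in every library, the GC correction and a single model over 24 libraries called 0. With the replicate number as a block 43 were called (10 higher; 23 separated), and with the block and the GC correction 320 (105 higher; 111 separated). The numbers are not stated to pair the pools. Deviations of same-numbered sham and SNI libraries correlated at −0.05, 0.19 and 0.15 in females and 0.20, 0.14 and 0.03 in males. Those of differently numbered libraries correlated at −0.23 to 0.12 in females and −0.18 to 0.06 in males. Whether the pools were paired was not tested further. Leaving out 1 library gave 0 to 12 calls (0 to 12 separated), 12 without male sham 1 and 1 without female sham 2. Leaving out the SNI library of lowest myelin level in each table, chosen after the data were seen, gave 2 calls, both separated.

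The sex by SNI interaction called 806 genes with DESeq2, 883 without the filter, 255 with the likelihood ratio test, 3 with the replicate block, 8 with block and GC correction, 1 without both low-myelin libraries, and 0 to 3283 with 1 library left out (6 without female SNI 1). In the ACC, 40 were called without the filter, 8 with the likelihood ratio test and 2 with block and GC correction. The region by SNI interaction called 19 with DESeq2, 338 without the filter and 22 with the likelihood ratio test. The cause of these differences was not tested. Gdf1 had a combined value of 0.00 with limma-voom and the GC correction, 0.01 with block and GC correction, and −0.22 to 0.11 with 1 library left out.

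Over 24 alternatives the list medians ranged from −0.58 to −0.26 for structural, −0.42 to −0.21 for paranode, −0.16 to −0.08 for lipid, −0.29 to −0.15 for transcription factor, −0.45 to −0.21 for iron and signalling and −0.21 to −0.14 for layer 6 genes. Of the 94 genes, those called lower numbered 10 with DESeq2, 28 with the likelihood ratio test, 13 with the block and 52 with block and GC correction, and 0 were called higher. Without the filter 61 of 95 were called lower. With 3 pools per group, genes of few reads are limited by depth.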

Other observations

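Lists not yet described are given by their genes at an unadjusted p under 0.05 in the combined mPFC fit (7.33% of all genes tested). Of 39 voltage-gated potassium channel genes, which repolarize neurons, 4 lay higher and 2 lower, with a median log2 fold change of 0.02. Glutamate receptor genes had 1 of 24 lower and 0 higher, and GABA receptor genes 0 of 15 on either side. The unadjusted sex by SNI interaction p was under 0.05 for 12 of the 24 and 6 of the 15. It was so for 15.8% of all genes, all without the GC correction. Among genes of the cytosolic ribosome 2 of 81 lay higher, and among nuclear genes of oxidative phosphorylation 2 of 85, with medians of 0.01 and 0.02. Cholesterol synthesis had 1 of 24 lower and a median of −0.05, and heat shock genes 2 of 21 lower. The same interaction p was under 0.05 for 8 of the 21 heat shock genes. None of the 21 glucocorticoid-responsive and 19 clock genes reached an unadjusted p under 0.05 (medians −0.01 and 0.03, 0 called by edgeR).

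Among other neighbours of the tissue, choroid plexus genes had 2 of 9 higher and 1 lower, and genes of olfactory bulb, claustrum and septal neurons 1 of 15 lower with a median of 0.01. Blood genes had 0 of 6 and keratinocyte genes 0 of 11 on either side. Of the hepatocyte list only 2 genes were tested, 1 of them Ttr.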
